A study of Mus musculus with 12 samples.

Results

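The 37 genes described here are interferon-stimulated genes, RNA sensors and the STAT and IRF factors that act between the interferon receptor and its targets. They were taken by name, in a list chosen with earlier results of these data known. All 37 are among the 24533 gene symbols of each of the 2 deposited tables. The libraries came from bone marrow of C57BL/6 mice in 4 groups of 3. LinNeg_WT and LinNeg_KO are lineage-negative marrow cells labelled WT or U2af1KO. LSK_WT and LSK_KO carry the same genotype labels and the source name BMT LSK Cells. LSK cells lack lineage markers, carry Sca-1 and c-Kit, and include the blood stem cells; the labels do not spell out BMT. All cells were lineage-depleted with magnetic beads and then sorted by flow cytometry. The labels give no age, sex, deletion system or inducing agent, and do not say whether the libraries of a group came from separate animals. The p-values therefore rest on library-to-library spread, part of which may be technical.

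Type I interferons are secreted when cells detect viral or misplaced nucleic acid. They bind the receptor IFNAR1-IFNAR2, and the kinases JAK1 and TYK2 then activate STAT2 and other STAT factors, which join IRF9 to form the complex ISGF3. ISGF3 binds the interferon-stimulated response element (ISRE), whose core is GAAA repeated after a gap of any 2 bases, in the promoters of target genes, while STAT dimers bind the gamma-activated sequence (GAS), TTCNNNGAA. The products of the targets degrade RNA, block translation or membrane fusion, and feed back on the sensors and on IRF7. In bone marrow, interferon is known for driving stem cells out of quiescence.

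The ISRE core was searched on both strands in RefSeq promoter windows of 300 bases (250 before and 50 after the annotated start, build GRCm38.p6, the assembly also called mm10). Windows were found for 28 of the 37 members by symbol, 34 windows in all. The core was in the windows of 15 of the 28 members, 53.6%, and of 3.99% of the 27025 genes with a window. The GAS core was in 9 of the 28, 32.1%, and in 9.55% of all genes with a window. The following stretches cover bases 140 to 21 upstream of the start on the gene's strand, 120 bases each, and show the 5 members that were called in both tables and hold the core there, with Isg15, which has 3 overlapping copies. Capitals mark the ISRE core on either strand.
Ifit1, chr19:34640749-34640868, plus strand: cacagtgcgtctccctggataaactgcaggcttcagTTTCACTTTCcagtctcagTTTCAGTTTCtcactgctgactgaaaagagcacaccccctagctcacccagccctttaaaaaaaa
Oas3, chr5:120777680-120777799, minus strand: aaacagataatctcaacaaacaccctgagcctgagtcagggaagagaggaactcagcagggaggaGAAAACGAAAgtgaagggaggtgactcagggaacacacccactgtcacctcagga
Rsad2, chr12:26456473-26456592, minus strand: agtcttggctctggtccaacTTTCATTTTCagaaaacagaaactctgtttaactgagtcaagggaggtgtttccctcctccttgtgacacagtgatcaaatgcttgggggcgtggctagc
Bst2, chr8:71537493-71537612, minus strand: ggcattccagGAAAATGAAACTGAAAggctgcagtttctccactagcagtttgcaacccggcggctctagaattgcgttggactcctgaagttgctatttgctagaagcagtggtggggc
Gbp3, chr3:142559904-142560023, plus strand: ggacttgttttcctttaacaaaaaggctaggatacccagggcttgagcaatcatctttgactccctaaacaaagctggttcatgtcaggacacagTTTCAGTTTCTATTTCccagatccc
Isg15, chr4:156200839-156200958, minus strand: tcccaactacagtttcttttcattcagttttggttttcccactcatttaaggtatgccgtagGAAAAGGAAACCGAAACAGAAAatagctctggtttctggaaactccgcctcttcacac
These 6 promoters hold the same core, and the genes behind them moved in different directions, as described below.

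The values are the authors' own comparisons of libraries labelled KO with libraries labelled WT, made with DESeq2 within each population. No value of a single library enters below, and library depth is unknown. A gene is called when its adjusted p is under 0.05. The mean under each label, given below as the derived mean, was computed from the authors' mean normalized count over 6 libraries and the fold change, taking 3 libraries per label. Because each table had its own normalization, no level is compared between populations, nor between genes of different length. U2af1 itself was higher under the KO label, at a log2 fold change of 0.65 (SE 0.195) in LinNeg and 0.61 (SE 0.06) in LSK in the authors' deposited tables. A count over the whole gene does not check a deletion of part of it, so every direction below rests on the labels. The sex-linked transcript Xist was at 10.02 (SE 1.81) in LinNeg and 7.49 (SE 0.94) in LSK in the authors' deposited tables. The Y-linked Ddx3y was at -0.79 (SE 1.64) and -9.21 (SE 0.38) in the authors' deposited tables. Xist was called higher in both tables, and Ddx3y was called lower in LSK and not in LinNeg. The derived mean of Ddx3y was 2165.0 (WT) and 1254.8 (KO) in LinNeg, and 2948.8 and 5.0 in LSK. With no value per library, in neither population can the sex of the mice and the genotype label be told apart.

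The interferon-stimulated genes did not move as a block in either population. In LinNeg 7 members were higher and 7 lower under the KO label, and in LSK 11 were higher and 16 lower. All 37 had an adjusted p in both tables. The share called in LinNeg was 37.8% of members, against 41.4% of 17108 genes (22.1% higher, 19.3% lower), so it was near the background. In LSK it was 73.0% of members, against 61.6% of 16482 genes (32.4% higher, 29.2% lower). The median log2 fold change of the members was 0.07 in LinNeg and -0.11 in LSK, against 0.16 and 0.04 for all genes tested. After recentring on the median gene, the LinNeg split became 5 higher and 11 lower.

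**Figure D1:**
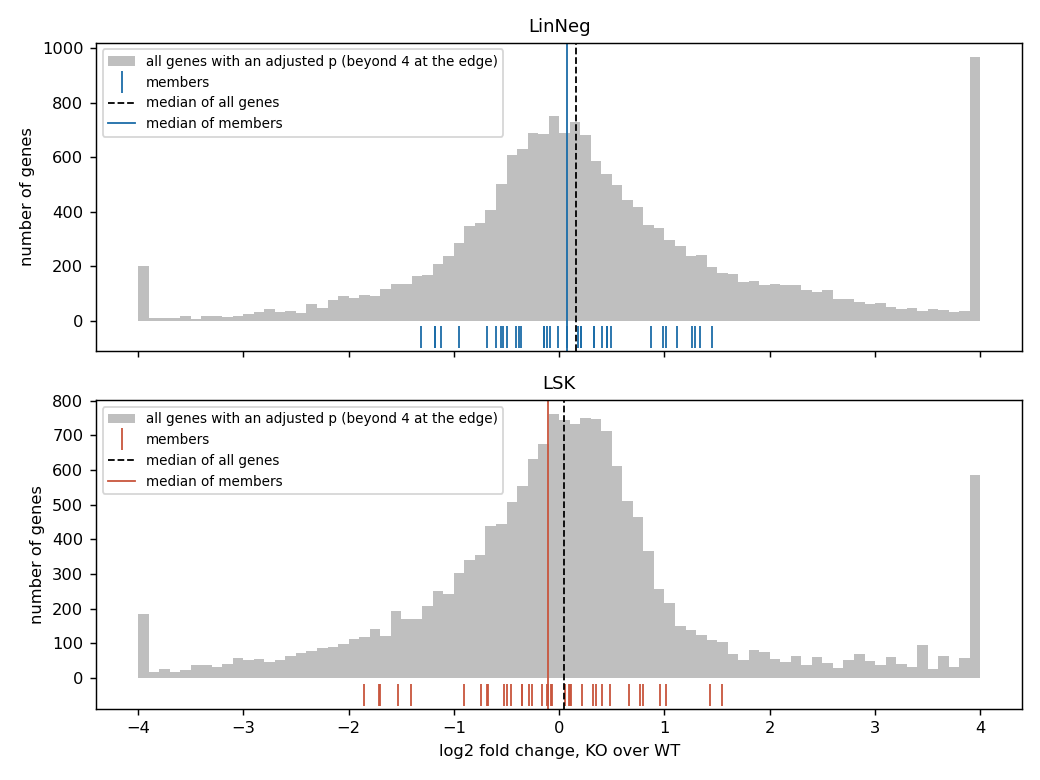
Histograms of the log2 fold change, KO over WT, of all genes with an adjusted p in LinNeg (top) and LSK (bottom), with the number of genes on the vertical axis and values beyond the plotted range in the edge bars; ticks mark the 37 members, and lines mark the medians of members and of all genes. The members spread on both sides of 0, from -1.31 to 1.45 in LinNeg and from -1.85 to 1.55 in LSK.

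Of the 37 members, 11 were called in both tables, 29.7%, near the 32.4% of 15735 genes with an adjusted p in both. These 11 are 78.6% of the 14 called in LinNeg and 40.7% of the 27 called in LSK. Ifih1, Oasl1 and Rsad2 were higher in both, and Mx1 and Ifitm3 were lower in both. Ifit1, Oas2, Oas3 and Oasl2 were higher in LinNeg and lower in LSK, and Bst2 and Gbp3 were lower in LinNeg and higher in LSK. Opposite calls were thus found in 6 of the 37 members, and over all genes in 968 of 15735, or 6.15%. Recentred on the median gene, Ifit1 and Oas2 were no longer called in LinNeg, with adjusted p of 0.0841 and 0.0997.

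The difference between the populations was tested per gene, as the log2 fold change in LSK minus that in LinNeg (two-sided normal test, Benjamini-Hochberg adjustment over 17397 genes). It passed for 15 of the 37 members, 6 with LSK above LinNeg and 9 below. Of all genes 28.3% passed, 15.5% above and 12.8% below. All 6 members with opposite calls passed. This adds little to those calls, because the test uses the same estimates and errors. The populations also differ in the label BMT, which cannot be told apart from the cell population.

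**Figure D2:**
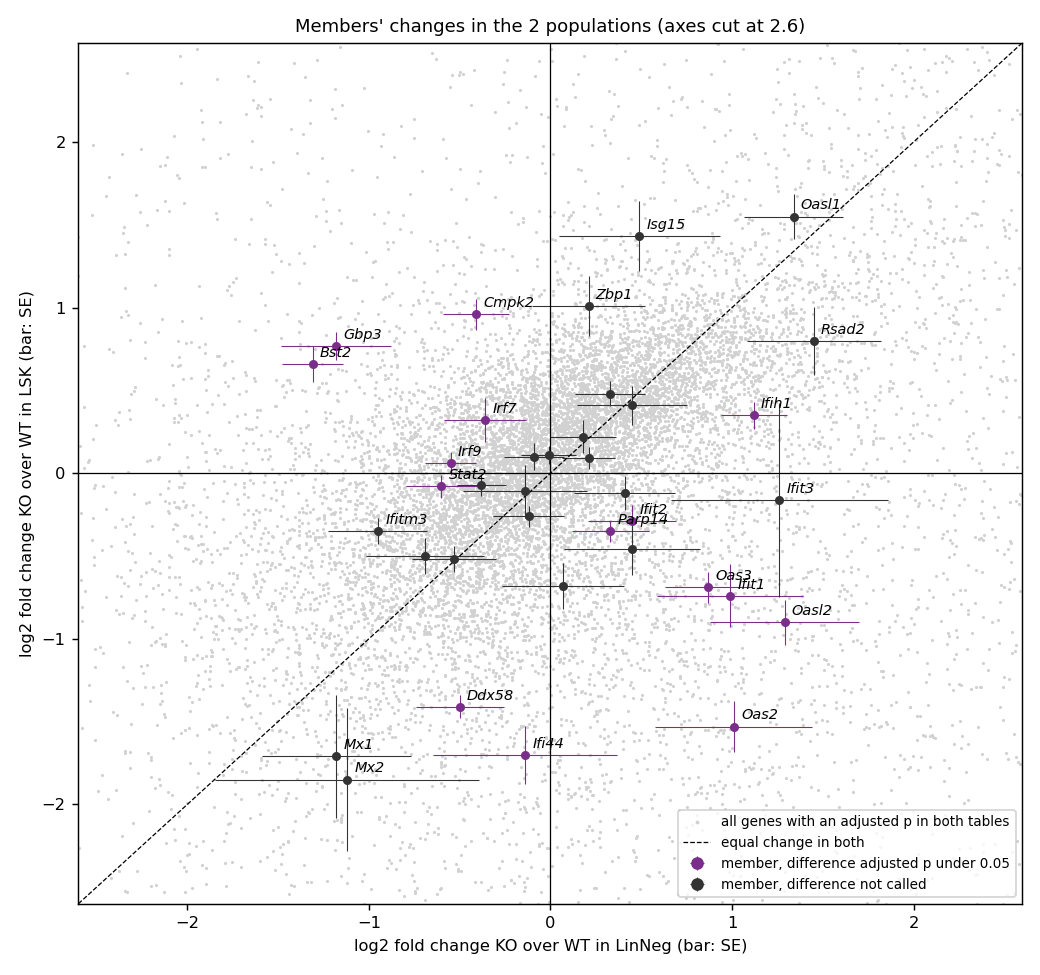
Log2 fold change, KO over WT, in LinNeg (horizontal axis) and LSK (vertical axis), with standard errors as bars; purple points are members whose difference between populations was called, dark points the other members, and grey points all genes with an adjusted p in both tables, except those outside the axes. Oas2, Oasl2, Oas3 and Ifit1 lie at the lower right, Bst2, Gbp3 and Cmpk2 at the upper left, and Oasl1 near the line of equal change.

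The OAS family holds 3 of the 6 members with opposite calls. OAS enzymes sense double-stranded RNA and make 2′-5′ oligoadenylate, the activator of RNase L. Of 5 members, 4 were called higher in LinNeg, while in LSK 3 were lower and 1 higher. The derived mean of Oas2 was 106.8 under the WT label and 215.5 under the KO label in LinNeg, and 582.4 and 201.5 in LSK. Its log2 fold changes in the authors' deposited tables were 1.01 (SE 0.43, adjusted p = 0.0471) in LinNeg and -1.53 (SE 0.15, adjusted p = 6.33e-23) in LSK. The difference of -2.54 (SE 0.46, adjusted p = 4.24e-07) was the most negative of the 37. Oas2 (chr5:120730333-120749853, minus strand, GRCm38) and Oas3 (chr5:120753098-120777661, minus strand) are neighbours with starts 27808 bp apart.

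Oas3, which prefers long double-stranded RNA, had derived means of 492.6 (WT) and 903.3 (KO) in LinNeg and of 1362.9 (WT) and 846.2 (KO) in LSK. The authors' deposited tables gave 0.87 (SE 0.24, adjusted p = 0.00108) and -0.69 (SE 0.10, adjusted p = 3.1e-12), and the difference was -1.56 (SE 0.26, adjusted p = 2.61e-08). Oasl2, a family member in another cluster, went from 124.8 to 306.0 in LinNeg and from 1148.5 to 615.1 in LSK (derived means, WT to KO). Its log2 fold changes were 1.29 (SE 0.41, adjusted p = 0.00547) and -0.90 (SE 0.14, adjusted p = 1.88e-10) in the authors' deposited tables. For Oasl2 the difference was -2.20 (SE 0.43, adjusted p = 4.59e-06).

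Oasl1 stood apart from its family in LSK. It has no synthetase activity and is known for inhibiting translation of Irf7 mRNA. The derived mean rose from 191.1 to 484.6 in LinNeg, 2.54-fold, and from 245.3 to 720.4 in LSK, 2.94-fold. In the authors' deposited tables Oasl1 had log2 fold changes of 1.34 (SE 0.27, adjusted p = 5.03e-06) and 1.55 (SE 0.14, adjusted p = 2.83e-28). Its 95% intervals were 0.81 to 1.87 and 1.28 to 1.83, and the difference of 0.21 (SE 0.30) was not called (adjusted p = 0.687). Oasl1 and Oasl2 are neighbours on chromosome 5, their starts 26304 bp apart on the same strand, and in LSK they moved in opposite directions. Oas1a was called in neither population, at 0.41 (SE 0.28) and -0.12 (SE 0.10) in the authors' deposited tables. It shares 57.6% of its 50-base stretches with transcripts of other genes, first Oas1g, so its counts are uncertain.

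**Figure D3:**
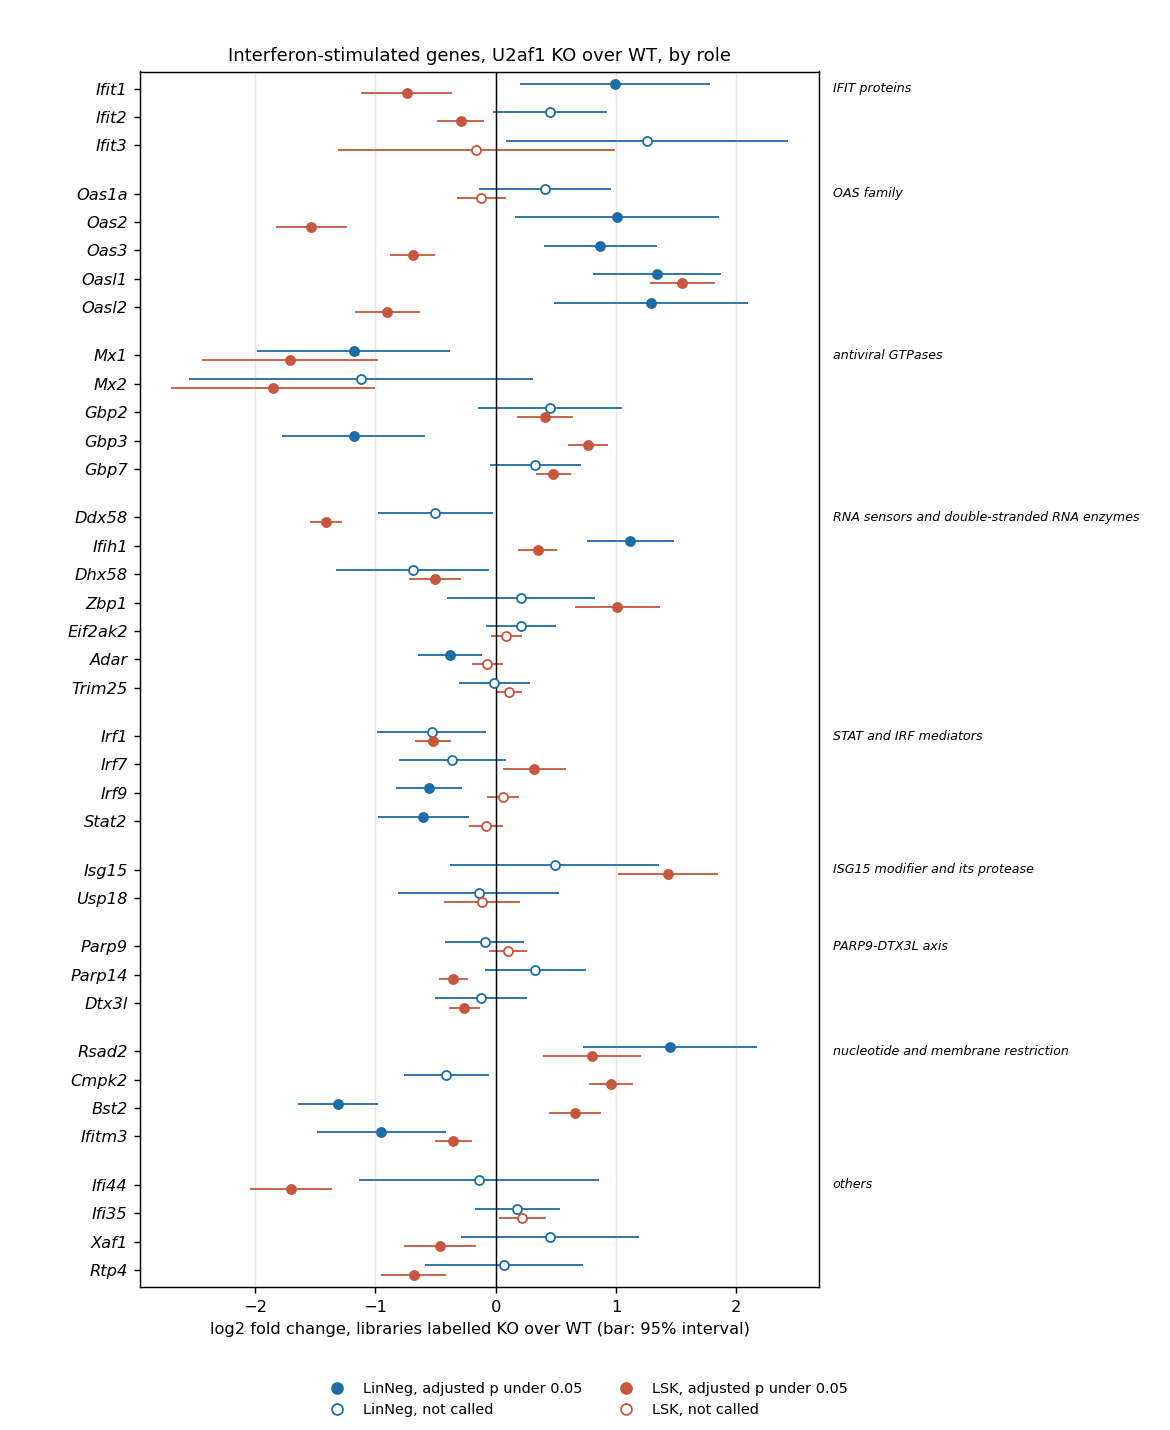
Log2 fold change, KO over WT, of the 37 members grouped by role, with 95% intervals as bars; blue is LinNeg and red is LSK, and filled points are called at an adjusted p under 0.05. Intervals are wider in LinNeg than in LSK for most members, and the OAS and IFIT genes other than Oasl1 lie right of 0 in LinNeg and left of 0 in LSK.

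The IFIT proteins, which bind viral RNA 5′ ends and block translation initiation, lay on the same sides as Oas2, Oas3 and Oasl2. Ifit1, whose promoter above holds the ISRE core at 104 and 85 bases before the start, had derived means of 118.4 (WT) and 234.9 (KO) in LinNeg. In LSK they were 205.2 (WT) and 122.8 (KO). The authors' deposited tables gave Ifit1 0.99 (SE 0.40, adjusted p = 0.0361) and -0.74 (SE 0.19, adjusted p = 0.000239), and the difference was -1.73 (SE 0.45, adjusted p = 0.000721). Ifit2 was lower in LSK at -0.29 (SE 0.10, adjusted p = 0.00675) and not called in LinNeg at 0.45 (SE 0.24, adjusted p = 0.121) in the authors' deposited tables. Its difference of -0.74 (SE 0.26, adjusted p = 0.0188) was lost after recentring (adjusted p = 0.0519). Ifit3 was called in neither, with a derived mean in LSK of only 18.1 (WT) and 16.2 (KO) and an SE of 0.59. It shares 51.2% of its 50-base stretches with Ifit3b, so reads of Ifit3 and Ifit3b can be lost or split. The 3 genes lie together on chromosome 19.

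The sensors split. Ddx58 encodes RIG-I, which detects 5′-triphosphate RNA, and it was the member with the smallest adjusted p in LSK (chr4:40203773-40239828, minus strand). Its derived mean was 2544.4 (WT) and 958.7 (KO) there, 2.65-fold lower under the KO label, and 2313.1 and 1638.3 in LinNeg. The log2 fold changes in the authors' deposited tables were -1.41 (SE 0.07, adjusted p = 1.14e-89) in LSK and -0.50 (SE 0.24, adjusted p = 0.0861) in LinNeg, where it was not called. The difference of -0.91 (SE 0.25, adjusted p = 0.0018) was called.

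Ifih1 encodes MDA5, the sensor of long double-stranded RNA, and was higher in both. Its derived mean was 530.7 (WT) and 1149.8 (KO) in LinNeg, and 1750.0 and 2237.0 in LSK. The authors' deposited tables gave 1.12 (SE 0.18, adjusted p = 1.05e-08) and 0.35 (SE 0.08, adjusted p = 4.22e-05), and the smaller change in LSK passed the test of the difference (-0.76, SE 0.20, adjusted p = 0.000945). The regulator Dhx58 (LGP2), which has no signalling domain, was lower in LSK at -0.50 (SE 0.11, adjusted p = 1.16e-05) and was at -0.69 (SE 0.32, adjusted p = 0.0733) in LinNeg in the authors' deposited tables. Thus in LSK the RIG-I and LGP2 transcripts were lower and the MDA5 transcript was higher.

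Zbp1, a sensor of Z-form nucleic acid that triggers necroptosis, had a derived mean of 150.8 (WT) and 302.7 (KO) in LSK, 2.01-fold higher. It was at 1.01 (SE 0.18, adjusted p = 7.02e-08) in LSK and 0.21 (SE 0.31, adjusted p = 0.622) in LinNeg in the authors' deposited tables, and the difference was not called (adjusted p = 0.0876; 0.0411 after recentring on the median gene). Adar, the adenosine deaminase that edits double-stranded RNA, was lower in LinNeg at -0.38 (SE 0.135, adjusted p = 0.016) and not called in LSK at -0.07 (SE 0.07) in the authors' deposited tables. The exons of Adar overlap those of Chrnb2 on the opposite strand, and the labels give no strand setting for the counting. Eif2ak2 (the kinase PKR) and Trim25 (a ubiquitin ligase for RIG-I) were called in neither. Their 95% intervals in LSK were -0.04 to 0.22 and 0.00 to 0.21, and that of Adar was -0.20 to 0.06.

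The transcripts of ISGF3 were lower in LinNeg. Irf9, its DNA-binding subunit, had derived means of 2822.8 (WT) and 1921.9 (KO) and a log2 fold change of -0.55 (SE 0.14, adjusted p = 0.000342) in the authors' deposited table. Stat2 had derived means of 2298.3 (WT) and 1516.1 (KO) and was at -0.60 (SE 0.19, adjusted p = 0.00623) in the authors' deposited table. Neither was called in LSK, at 0.06 (SE 0.07) for Irf9 and -0.08 (SE 0.07) for Stat2 in the authors' deposited table. Both differences were called, at 0.62 (SE 0.16, adjusted p = 0.000533) for Irf9 and 0.52 (SE 0.21, adjusted p = 0.0402) for Stat2. Exons of Irf9 overlap those of Rnf31 by 123 bases on the same strand.

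Irf7, the factor that amplifies interferon production, was higher in LSK at 0.32 (SE 0.13, adjusted p = 0.0313) and was at -0.36 (SE 0.23, adjusted p = 0.203) in LinNeg in the authors' deposited tables. Its difference of 0.67 (SE 0.26) was called (adjusted p = 0.0388), and its LSK call was lost after recentring (adjusted p = 0.0656). Irf1, which also responds to interferon gamma, was lower in LSK at -0.52 (SE 0.08, adjusted p = 8.26e-11). It had nearly the same value in LinNeg, -0.53 (SE 0.23, adjusted p = 0.0548), in the authors' deposited tables, where it was not called.

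Among the antiviral GTPases, Mx1 and Mx2 were at negative values throughout and the guanylate-binding proteins were not. C57BL/6 mice are known to carry a defective Mx1, and the annotation marks Mx2 as a polymorphic pseudogene. Mx1 had derived means of 416.6 (WT) and 184.2 (KO) in LinNeg and of 84.4 (WT) and 25.8 (KO) in LSK. The authors' deposited tables gave Mx1 -1.18 (SE 0.41, adjusted p = 0.0125) and -1.71 (SE 0.37, adjusted p = 1.1e-05). Mx2 was lower in LSK at -1.85 (SE 0.43, adjusted p = 4.19e-05), the lowest value among members there, and not called in LinNeg at -1.12 (SE 0.73) in the authors' deposited tables.

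Gbp2, Gbp3 and Gbp7 are neighbours on chromosome 3 and belong to a family that attacks the vacuoles of intracellular pathogens. In LSK all of them were higher, at 0.41 (SE 0.12) for Gbp2, 0.77 (SE 0.08) for Gbp3 and 0.48 (SE 0.07) for Gbp7 in the authors' deposited table. In LinNeg only Gbp3 among these members was called, and it was lower. Its derived mean was 677.9 (WT) and 300.1 (KO) in LinNeg, and 1232.0 and 2096.2 in LSK. The authors' deposited table for LinNeg gave Gbp3 -1.18 (SE 0.30, adjusted p = 0.000491), and the difference of 1.94 (SE 0.32, adjusted p = 1.37e-08) was called. For Gbp2 and Gbp7 the differences of -0.04 (SE 0.33) and 0.15 (SE 0.21) were not called. Gbp7 shares 12.7% of its 50-base stretches with other genes, so part of its count is uncertain. Other genes of the family, which are no members, were mostly higher in LinNeg. Gbp4 was at 3.02, Gbp6 at 2.39, Gbp8 at 3.18 and Gbp9 at 1.94 in the authors' deposited table for LinNeg, all called. Gbp5 was not called there. In LSK Gbp4, Gbp6 and Gbp9 were called higher and Gbp5 lower, and Gbp8 was not called.

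**Figure D4:**
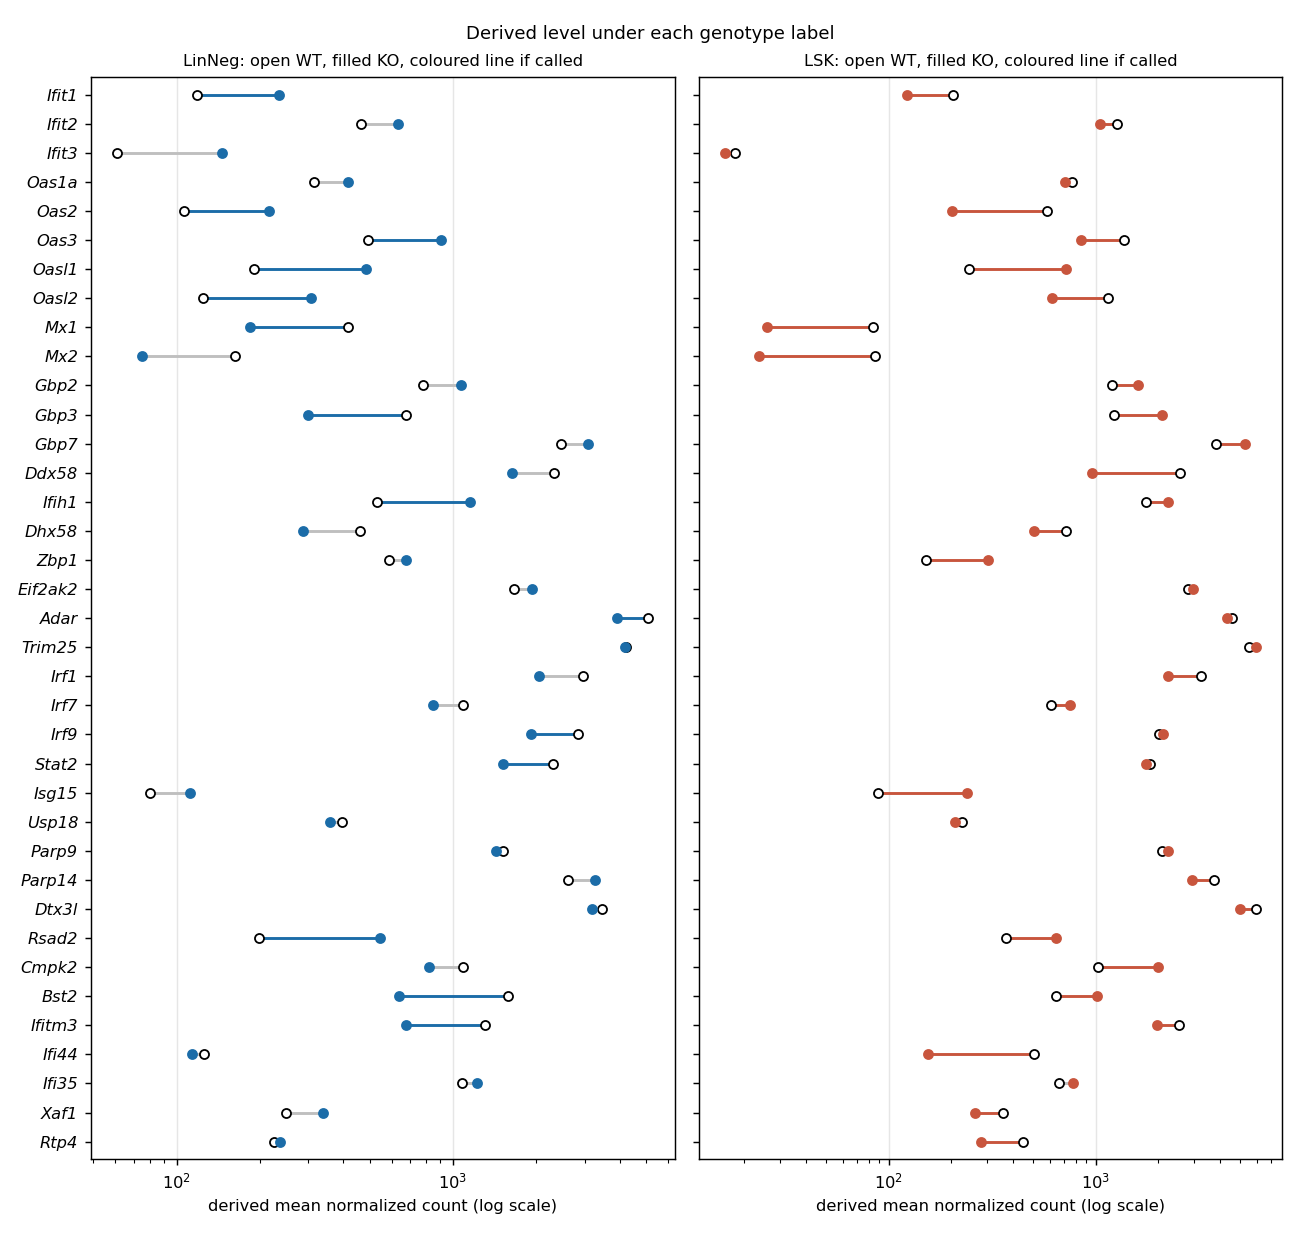
Derived mean normalized count (log axis) of each member under the WT label (open circle) and the KO label (filled circle) in LinNeg (left) and LSK (right); the connecting line is coloured where the member was called. Oas2 runs from 106.8 up to 215.5 in LinNeg and from 582.4 down to 201.5 in LSK, and Bst2 runs the other way.

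Bst2, or tetherin, holds budding virions at the cell surface and in mice also marks plasmacytoid dendritic cells. It had the smallest adjusted p of the members in LinNeg and the largest positive difference between populations, LSK minus LinNeg. Its derived mean was 1582.3 (WT) and 637.1 (KO) in LinNeg, 2.48-fold lower, and 643.1 and 1014.2 in LSK, 1.58-fold higher. The authors' deposited tables gave -1.31 (SE 0.17, adjusted p = 1.34e-13) and 0.66 (SE 0.11, adjusted p = 1.15e-08), and the difference was 1.97 (SE 0.20, adjusted p = 1.32e-20). In bulk samples, fewer cells of a type and less RNA per cell cannot be told apart. Of 8 plasmacytoid dendritic markers, 4 were lower and 1 higher in LinNeg, and 3 were lower and 0 higher in LSK. Their summed derived mean was 29760.4 (WT) and 5516.8 (KO) in LinNeg and 8503.4 and 3592.1 in LSK, with none at a mean of 0. Most of the LinNeg fall was Irf8, which is also a monocyte factor. Without Irf8 the summed derived mean of the other 7 was 6241.6 (WT) and 5167.3 (KO) in LinNeg and 6191.0 and 2766.5 in LSK. Among them in LinNeg, the derived mean of Siglech was 829.7 (WT) and 0.3 (KO), and that of Ccr9, the marker called higher, was 748.6 and 2591.3. Of 8 monocyte and macrophage markers, 8 were lower in LinNeg (summed derived mean 52566.6 for WT, 6295.2 for KO), and 4 were higher and 1 lower in LSK (4618.2 for WT, 7330.6 for KO). Among all genes tested, 22.1% were higher and 19.3% lower in LinNeg, and 32.4% and 29.2% in LSK. The part of these cell types in the change of Bst2 and the other members was not tested.

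Rsad2 encodes viperin, which makes a chain-terminating nucleotide, and Cmpk2, a mitochondrial nucleotide kinase, starts 12752 bp away on chromosome 12 in the opposite orientation. Rsad2 was higher in both populations, with derived means of 199.2 (WT) and 544.8 (KO) in LinNeg and 368.2 and 640.5 in LSK. Its log2 fold changes of 1.45 (SE 0.37, adjusted p = 0.000386) and 0.80 (SE 0.21, adjusted p = 0.000243) in the authors' deposited tables include the largest rise of any member in LinNeg. Cmpk2 was higher in LSK, with derived means of 1028.4 (WT) and 2005.5 (KO), and was not called in LinNeg. The authors' deposited tables gave Cmpk2 0.96 (SE 0.09, adjusted p = 2.02e-24) in LSK and -0.41 (SE 0.18, adjusted p = 0.0565) in LinNeg, and the difference of 1.37 (SE 0.20, adjusted p = 3.67e-10) was called. So these neighbours rose together in LSK and not in LinNeg. Ifitm3, which blocks membrane fusion of viruses, was lower in both at -0.95 (SE 0.27, adjusted p = 0.00197) and -0.35 (SE 0.08, adjusted p = 2.8e-05) in the authors' deposited tables.

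Isg15, the ubiquitin-like modifier, was higher in LSK, and its protease was not called. The derived mean of Isg15 was 88.6 (WT) and 238.6 (KO) in LSK, 2.69-fold higher, and 80.2 and 112.3 in LinNeg. Its log2 fold changes were 1.43 (SE 0.21, adjusted p = 5e-11) in LSK and 0.49 (SE 0.44, adjusted p = 0.399) in LinNeg in the authors' deposited tables. The difference of 0.94 (SE 0.49) was not called (adjusted p = 0.148). Usp18, which removes ISG15 and also inhibits the interferon receptor, was at -0.14 (SE 0.34) in LinNeg and -0.11 (SE 0.16) in LSK in the authors' deposited tables. With these errors, the 95% interval of Usp18 in LSK ran from -0.42 to 0.21.

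Parp9 and Dtx3l form a complex that modifies histones, and their genes overlap head to head on chromosome 16. Parp9 was called in neither population, at -0.09 (SE 0.17) and 0.10 (SE 0.08) in the authors' deposited tables. Dtx3l was slightly lower in LSK at -0.26 (SE 0.065, adjusted p = 0.000171) and not called in LinNeg at -0.12 (SE 0.195) in the authors' deposited tables. Their exons overlap by 458 bases on opposite strands, so without strand information reads there cannot be assigned. Parp14, an antagonist of PARP9 in macrophage STAT signalling, was lower in LSK at -0.35 (SE 0.06, adjusted p = 1.26e-07) and at 0.33 (SE 0.21, adjusted p = 0.221) in LinNeg in the authors' deposited tables. Its difference of -0.67 (SE 0.22) was called (adjusted p = 0.0112).

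Of the remaining 4 members, 3 were lower in LSK and 0 were called in LinNeg. Ifi44, an interferon-induced protein long used as a signature gene, had derived means of 505.7 (WT) and 155.6 (KO) in LSK, 3.25-fold lower, and of 125.5 and 113.6 in LinNeg. The authors' deposited tables gave -1.70 (SE 0.18, adjusted p = 1.84e-21) in LSK and -0.14 (SE 0.51, adjusted p = 0.851) in LinNeg, and the difference of -1.56 (SE 0.54) was called (adjusted p = 0.0167). Rtp4 was lower in LSK at -0.68 (SE 0.14, adjusted p = 2.29e-06) and Xaf1, an inhibitor of XIAP, at -0.46 (SE 0.15, adjusted p = 0.0056) in the authors' deposited table. Ifi35 was just outside the threshold in LSK at 0.22 (SE 0.10, adjusted p = 0.0508) in the table deposited by the authors (LSK). Altogether 7 members were called in neither population, namely Ifi35, Eif2ak2, Ifit3, Oas1a, Parp9, Trim25 and Usp18. The widest 95% bounds among them were -0.81 and 2.43 in LinNeg and -1.31 and 0.99 in LSK.

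Members with the ISRE core were called in both directions. Among the 15 members with the core, 4 were higher and 4 lower in LinNeg, and 7 were higher and 4 lower in LSK. Among the 13 with a window and no match, 2 were higher and 2 lower in LinNeg, and 3 were higher and 6 lower in LSK. Of all genes tested, 22.1% were higher and 19.3% lower in LinNeg, and 32.4% and 29.2% in LSK. Whether members with and without the core differ was not tested. The windows of Oasl1 and Oasl2 gave no match of this exact core, which says nothing of more distant or divergent elements. Dhx58, Mx1, Mx2, Oas2, Parp14, Parp9, Rtp4, Usp18 and Zbp1 were not matched to a window.

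Among the genes upstream of these targets, more were called lower than higher in both populations. Of 32 ligand, receptor, adaptor and inhibitor genes with an adjusted p in LinNeg, 17 were lower and 3 higher. Of 31 in LSK, 15 were lower and 3 higher. The share called in LinNeg was 62.5%, against 41.4% of all genes tested (22.1% higher, 19.3% lower). In LSK it was 58.1%, against 61.6% (32.4% higher, 29.2% lower), so the share called there was near the background. Of 9 interferon ligand genes, 8 were listed at a mean of 0 in LinNeg and 7 in LSK, and only Ifng had an adjusted p, in LinNeg, where it was not called.

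Both subunits of the type I receptor were lower in both populations. Ifnar1 had derived means of 3936.7 (WT) and 2079.6 (KO) in LinNeg and of 3761.3 and 2205.0 in LSK. Its log2 fold changes were -0.92 (SE 0.165, adjusted p = 1.98e-07) and -0.77 (SE 0.06, adjusted p = 1.61e-32) in the authors' deposited tables. Ifnar2 was at -1.32 (SE 0.13, adjusted p = 7.01e-24) and -0.60 (SE 0.06, adjusted p = 6.19e-20) in the authors' deposited tables, a difference of 0.72 (SE 0.14, adjusted p = 4.35e-06). The type II receptor subunit Ifngr1 was higher in LSK at 1.23 (SE 0.07) and not called in LinNeg at -0.31 (SE 0.21) in the authors' deposited tables. For the partner subunit Ifngr2 the authors' deposited tables gave -1.24 (SE 0.19, adjusted p = 3.07e-10) in LinNeg and -0.10 (SE 0.11) in LSK. Ifngr2 was thus called lower in LinNeg and not called in LSK. Its difference of 1.14 (SE 0.22, adjusted p = 2.18e-06) was called. Jak2 was at -1.37 (SE 0.135) in LinNeg and 0.18 (SE 0.06) in LSK, both called in the authors' deposited tables.

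Irf8 and Irf5, factors of the monocyte and dendritic lineages, were lower in both. Irf8 was at -6.07 (SE 0.15) in LinNeg and -1.49 (SE 0.12) in LSK in the authors' deposited tables. Tmem173, which encodes the DNA-response adaptor STING, was at -1.66 (SE 0.21, adjusted p = 1.89e-14) and -1.32 (SE 0.10, adjusted p = 9.89e-36) in the authors' deposited tables. The adaptor Mavs, which carries the signal of RIG-I and MDA5, was called in neither, at 0.08 (SE 0.16) and -0.12 (SE 0.085) in the authors' deposited tables. The inhibitor Socs1 had derived means of 195.7 (WT) and 1441.4 (KO) in LinNeg, 7.37-fold higher, and 150.8 and 165.2 in LSK. In the authors' deposited table for LinNeg Socs1 was at 2.88 (SE 0.39, adjusted p = 1.86e-12), and the difference of -2.75 (SE 0.43, adjusted p = 3.43e-09) was called. Irf2, a repressor of interferon targets, was lower in both at -0.69 (SE 0.14) and -0.94 (SE 0.07) in the authors' deposited tables. Ptpn6 had the smallest adjusted p of the inhibitors in LinNeg. It was lower in both, at -1.69 (SE 0.14) and -0.42 (SE 0.06) in the authors' deposited tables. Pias1 was also called lower in both, and Ptpn2 was called higher in LinNeg and not called in LSK.

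**Figure D5:**
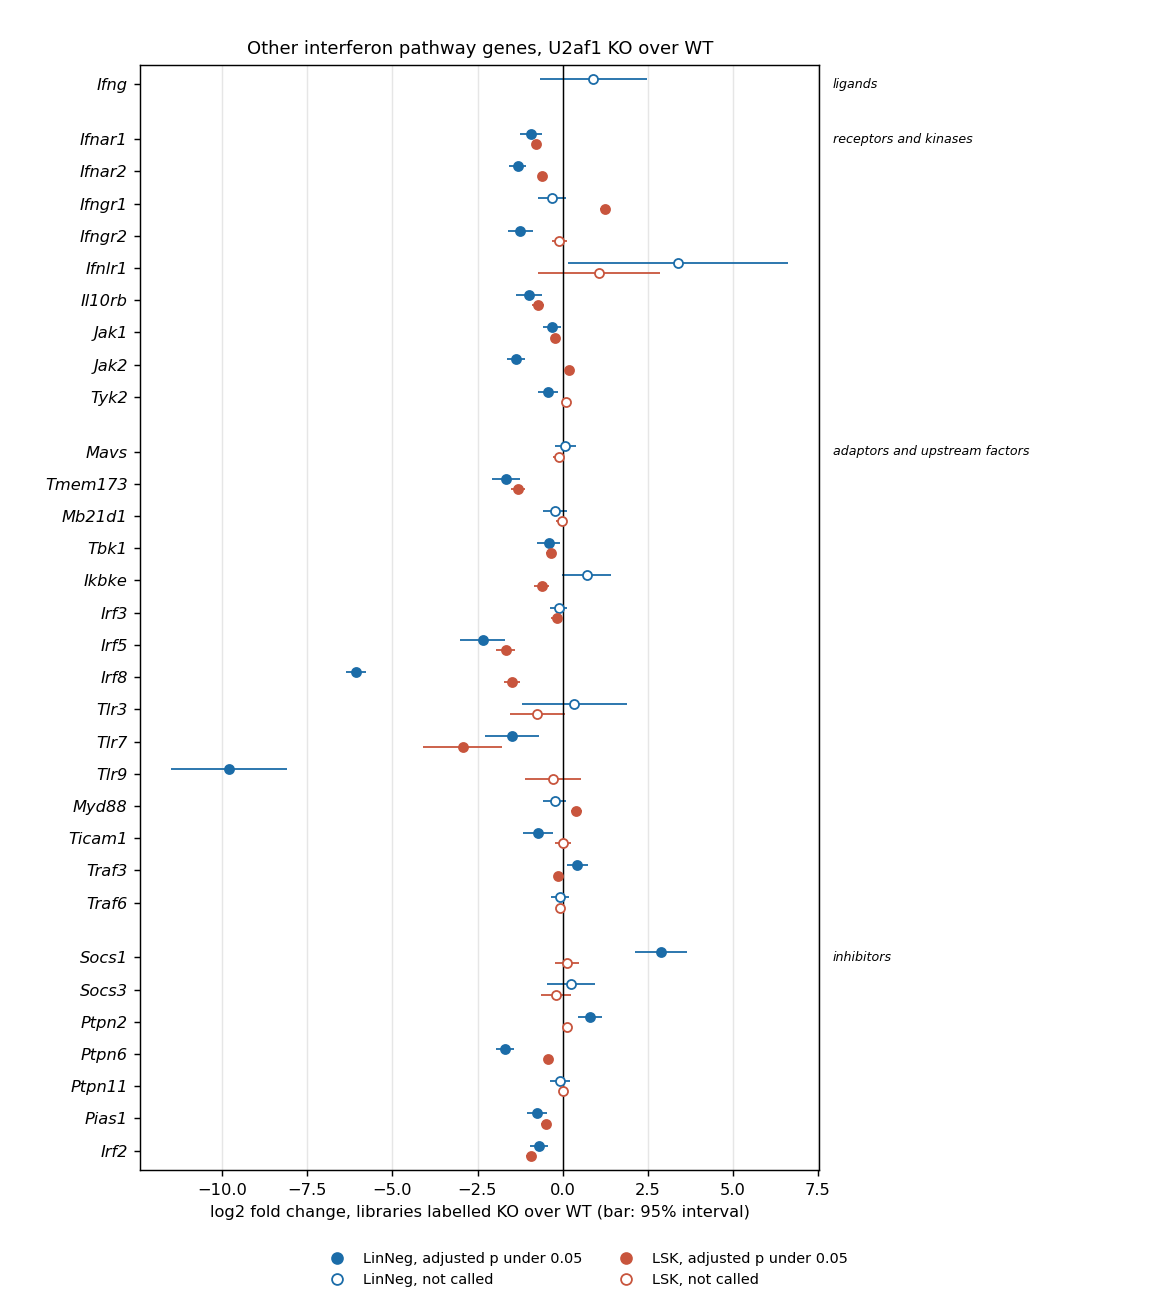
Log2 fold change, KO over WT, of interferon ligands, receptors and kinases, adaptors and inhibitors that are no members, with 95% intervals as bars; blue is LinNeg, red is LSK, and filled points are called. Ifnar1 and Ifnar2 lie left of 0 in both populations, Irf8 and Tlr9 lie far left in LinNeg, and Socs1 lies right of 0 in LinNeg.

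A second list of 62 other interferon-stimulated genes was mixed as well. Of 61 with an adjusted p in each table, 14 were higher and 16 lower in LinNeg, and 18 were higher and 26 lower in LSK. The share called was 49.2% in LinNeg, against 41.4% of all genes tested, and 72.1% in LSK, against 61.6%. Ly6e had the smallest adjusted p of this list in LinNeg, at -1.57 (SE 0.12) in the authors' deposited table. It was not called in LSK, at -0.01 (SE 0.065) in the authors' deposited table. Isg20, an RNA exonuclease, was higher in both, at 2.03 (SE 0.225) and 2.10 (SE 0.14) in the authors' deposited tables. Ube2l6 was also called higher in both, and Trim14 and Slfn8 were called lower in both. Ifi203 had the smallest adjusted p of this list in LSK, at -2.32 (SE 0.07), followed by Epsti1 at -1.99 (SE 0.10) in the authors' deposited table. Ifi30, a lysosomal thiol reductase of antigen presentation, was lower in LinNeg at -1.36 (SE 0.18) and higher in LSK at 2.05 (SE 0.13) in the authors' deposited tables. Ly6a encodes Sca-1, an interferon target that is also part of the LSK gate; the part of the sort in its LSK level was not tested. It had derived means of 604.5 (WT) and 2783.6 (KO) in LinNeg and of 593.1 and 335.1 in LSK. The log2 fold changes of Ly6a were 2.20 (SE 0.28, adjusted p = 1.31e-13) and -0.82 (SE 0.12, adjusted p = 1.5e-11) in the authors' deposited tables.

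Markers of other cells moved with the labels in both populations. Of 8 neutrophil markers, 6 were lower in LinNeg (7 tested) and 8 higher in LSK, and their summed derived mean was 82522.1 (WT) and 3965.4 (KO) in LinNeg and 60358.5 and 165644.7 in LSK. Of 6 erythroid markers tested, 6 were higher in each population, while Hba-a1 and Hbb-bt were listed at a mean of 0 in LinNeg and Hbb-bt in LSK. Among the 8 stem and LSK markers, 7 were lower in LSK, with a summed derived mean of 56070.3 (WT) and 18232.3 (KO). In LinNeg 2 of these 8 were higher, 2 lower and 4 not called. For comparison, 22.1% of all genes tested were higher and 19.3% lower in LinNeg, and 32.4% and 29.2% in LSK. Kit and Ly6a, the genes of the LSK gate, had means of 21655 and 464 in LSK, as listed in the authors' deposited table. The part of these cells in the members' changes was not tested.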

How the data were processed

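RNA of 12 libraries was measured by ribosomal RNA depletion and sequencing. The submitters' processing notes name HISAT2, SAMtools 1.10, StringTie and DESeq2 with build mm10; the counting program is not given in the sources used here. The deposited tables hold, per the file headers, the authors' mean of normalized counts (a signal), log2 fold change with its error on the log2 scale, the Wald statistic (a score), the p-value and the adjusted p-value. Rows that name no gene (38.7% of summed means in LinNeg, 27.2% in LSK) and 4 repeated-symbol rows were not used. To undo rounding, each fold change was taken as the statistic multiplied by its error, within 0.005 of the deposited value. The test of the difference was run on simulated fold changes with normal errors of exactly the deposited sizes. That simulation cannot check whether errors estimated from 3 libraries per group are right. The p-values of the difference were adjusted across all genes. Intervals are 95%. Stretches of 50 bases were compared with GENCODE M21 transcripts, from which the chromosomes come. Alternatives were stricter thresholds, other filters on the mean and recentring. The members and lists were chosen with earlier results of these data known. One listed gene is not reported here and is left out of the list counts. All members are named. Of other lists, up to 5 genes per table by smallest adjusted p are named, with U2af1, Ly6a and the markers Hba-a1, Hbb-bt and Kit. Siglech, Ccr9, Mavs, Gbp4, Gbp5, Gbp6, Gbp8, Gbp9 and the sex-linked genes were chosen after their values were seen. Tables were handled in pandas 2.3.3 (Python 3.11.15), tests run in scipy 1.17.1 and plots drawn in matplotlib 3.10.9.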

Additional observations from a re-analysis of the deposited data

Results flagged for a closer look

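The log2 fold change, KO over WT, differed between LSK and LinNeg for 15 members by the test of the difference itself (LSK minus LinNeg, adjusted over 17397 genes). LSK was below LinNeg for Oas2 (-2.54), Oasl2 (-2.20), Ifit1 (-1.73), Oas3 (-1.56), Ifi44 (-1.56), Ddx58 (-0.91), Ifih1 (-0.76), Ifit2 (-0.74) and Parp14 (-0.67). LSK was above LinNeg for Bst2 (1.97), Gbp3 (1.94), Cmpk2 (1.37), Irf7 (0.67), Irf9 (0.62) and Stat2 (0.52). The fold changes of Ifih1, Ddx58, Ifi44 and Stat2 had the same sign in both populations and differed in size, and those of the other 11 had opposite signs, not all of them called in both.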

How the results depend on the processing

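No paired analysis was possible because the tables hold no values per library, and for the same reason no library could be left out. Asking for at least a 2-fold change left 8 of the 14 members called in LinNeg and 8 of the 27 in LSK. Every other alternative kept the counts within 1.5 times: 10 to 16 in LinNeg, 26 to 28 in LSK, and 10 to 17 for the difference between populations. At an unadjusted p under 0.05 the counts were 19 and 28. With a threshold of 0.01, Adar, Ifit1, Mx1 and Oas2 were lost in LinNeg and Irf7 in LSK, as were the differences of Ifi44, Ifit2, Irf7, Parp14 and Stat2. With no independent filtering, Oas2 was lost in LinNeg. Recentring on the median gene added Cmpk2, Ddx58, Dhx58 and Irf1 as lower in LinNeg and ended the calls of Ifit1 and Oas2 there and of Irf7 in LSK. Among the differences it added those of Adar, Ifitm3 and Zbp1 and ended that of Ifit2. It turned the sign of Rtp4 in LinNeg (-0.09) and of the Gbp2 difference (0.07), neither of them called. Ifit3 in LSK has a mean under 50 and gave no value with means of at least 50 required; that filter added Cmpk2 and Irf1 in LinNeg and Ifi35 in LSK. SEs in LinNeg (median 0.271 over members) were larger than in LSK (0.104), so smaller changes were detectable in LSK.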
